A study of Mus musculus with 8 samples.

Results

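The transcripts described here belong to the metallothioneins and to zinc regulation in the mouse heart. They are Mt1 and Mt2, which encode the common metallothioneins, Mtf1, which encodes the zinc-sensing transcription factor, and the zinc transporter genes Slc30a1, Slc30a10, Slc39a14, Slc39a8 and Slc39a10. All 8 were found by symbol among the 22173 genes of the deposited table. The genes were chosen by name, with the FPKM difference between vehicle and DAPA in these same libraries known, so that difference is a description and not a test. Hearts were from C57BL/6J mice in which the left anterior descending artery had been tied, which kills muscle downstream of the tie. Of the libraries, 4 are labelled vehicle, with no length of treatment given, and 4 are labelled DAPA, dapagliflozin, dosed daily at 1 mg/kg for 4 weeks once the artery had been tied. Dapagliflozin is an inhibitor of SGLT2, a glucose transporter of the kidney tubule. No unoperated group is among the libraries, and the labels give no age, sex, part of the heart or hour of collection. They also do not say that each library is a separate mouse, so p-values measure the spread between libraries.

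The groups also differed in their atrial transcripts, which bears on every comparison between them. Myl7, the atrial myosin light chain, measured 0.379 to 2.93 FPKM in the vehicle libraries and 578 to 627 FPKM in the DAPA libraries. Sln, sarcolipin, had 15 reads over the vehicle libraries and 16913 over the DAPA libraries, Mybphl had 12 and 7734, and Bmp10 had 1 and 1852. These atrial transcripts were thus nearly absent from all vehicle libraries and plentiful in all DAPA libraries. Treatment and the make-up of the tissue cannot be told apart in this design.

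Metallothioneins are small proteins rich in cysteine that hold zinc and copper in the cytosol. When free zinc rises, MTF1 binds short metal response elements in the promoters of Mt1, Mt2 and Slc30a1 and raises their transcription, and in mouse cells glucocorticoids and interleukin-6 are also known inducers of Mt1 and Mt2. Transporters of the SLC30 (ZnT) family move zinc out of the cytosol, and those of the SLC39 (ZIP) family bring it in. In mouse hearts, metallothionein is known as a guard against oxidant damage.

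The promoters of Mt1, Mt2, Mt3 and Slc30a1 are shown because 3 of these genes lie side by side on chromosome 8 and differed in direction between the groups, and the fourth is a classical MTF1 target elsewhere in the genome. Each window runs from 250 bases before to 50 bases after the annotated start, from RefSeq on GRCm38.p6, all on the plus strand. Mt1 is at chr8:94178839-94179138, Mt2 at chr8:94172368-94172667, Mt3 at chr8:94152357-94152656 and Slc30a1 at chr1:191906531-191906830. Capitals mark the letters TGCACNC or TGCGCNC, the core of the metal response element, on either strand, with overlapping matches counted once.
Mt1: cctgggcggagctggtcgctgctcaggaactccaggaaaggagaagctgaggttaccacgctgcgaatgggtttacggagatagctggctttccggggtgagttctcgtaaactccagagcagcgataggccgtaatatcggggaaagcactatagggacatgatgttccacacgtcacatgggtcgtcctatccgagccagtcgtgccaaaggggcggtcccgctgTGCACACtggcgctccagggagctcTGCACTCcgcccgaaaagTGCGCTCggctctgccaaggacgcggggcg
Mt2: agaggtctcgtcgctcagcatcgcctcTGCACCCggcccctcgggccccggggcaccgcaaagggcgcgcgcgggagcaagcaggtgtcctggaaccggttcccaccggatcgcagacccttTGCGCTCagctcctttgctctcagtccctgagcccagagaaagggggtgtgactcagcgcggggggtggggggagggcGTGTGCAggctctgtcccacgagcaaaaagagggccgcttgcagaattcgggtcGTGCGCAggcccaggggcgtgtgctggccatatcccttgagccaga
Mt3: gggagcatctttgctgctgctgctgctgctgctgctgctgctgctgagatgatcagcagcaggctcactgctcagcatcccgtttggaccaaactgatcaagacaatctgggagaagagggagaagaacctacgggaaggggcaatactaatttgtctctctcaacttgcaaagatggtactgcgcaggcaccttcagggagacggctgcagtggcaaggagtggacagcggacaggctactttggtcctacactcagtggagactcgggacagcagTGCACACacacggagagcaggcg
Slc30a1: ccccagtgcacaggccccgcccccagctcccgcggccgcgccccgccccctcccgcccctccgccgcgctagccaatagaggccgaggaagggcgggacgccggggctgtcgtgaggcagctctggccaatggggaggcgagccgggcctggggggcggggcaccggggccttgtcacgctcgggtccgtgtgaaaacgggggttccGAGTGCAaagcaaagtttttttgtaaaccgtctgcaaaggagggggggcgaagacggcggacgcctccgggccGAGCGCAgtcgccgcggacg

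Mt2 held 4 matches to the metal response core, Mt1 held 3, Slc30a1 held 2 and Mt3 held 1. Among the 32851 promoter windows of the RefSeq table, 25.7% held at least 1 match, 6.14% at least 2, 1.31% at least 3 and 0.295% at least 4. The Mt1 matches began 23 bases before the annotated start and at bases 3 and 21 counted from it. In Mt2 they began 223, 128 and 50 bases before the annotated start and at base 5 counted from it. These counts and positions hold only for the annotated starts used. Sequence beyond each window was not searched, and where transcription starts in these hearts was not measured. Of the other listed genes, Slc30a10 held 2 matches, one of them a palindromic pair that overlaps, and Slc39a8 held 1 in the second of its windows. Slc39a10, with windows at both of its annotated starts, and Mtf1 held none. Slc39a14 is not in the promoter table.

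Other motifs were searched on both strands of the same windows. The antioxidant element TGACNNNGC, read by NRF2 and its partners, occurred once each in Mt2, Slc30a1 and the first window of Slc39a8, and in 12.4% of all windows. The STAT palindrome TTCNNNGAA occurred in the second window of Slc39a10, and in 8.30% of all windows. The full palindromic element of the glucocorticoid receptor was in none of the listed genes' windows and in 3 of the 32851. An exact match so rare was unlikely in any window, so its absence tells nothing of the listed genes. Looser forms of the element were not searched. Sequence beyond the windows was not searched for any of these motifs. The lack of a match, such as that of the antioxidant element in Mt1, thus holds for the window alone, and a match may lie nearby. A match of letters is a description of the sequence and not a measured binding site.

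**Figure D1:**
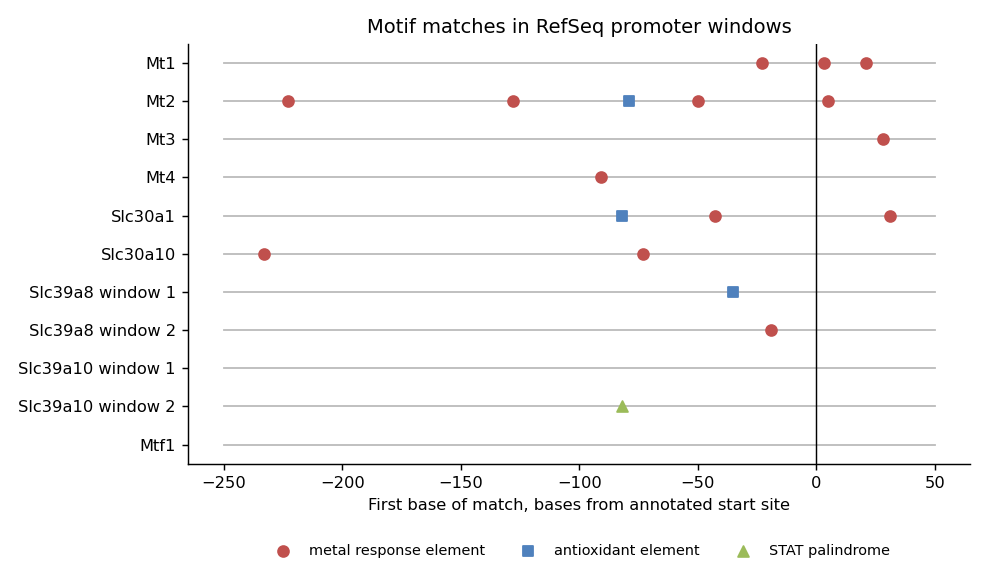
Positions of motif matches in promoter windows of the metallothionein genes and the listed zinc genes, with the first base of each match on the x axis in bases from the annotated start site and a line for each RefSeq window. Matches to the metal response core number 4 in Mt2 and 3 in Mt1, and none lies in Mtf1 or in either window of Slc39a10.

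Mt1 and Mt2 were both lower in the DAPA libraries, and Mt2 was lower by the larger factor. Values are in FPKM, fragments scaled to transcript length and to library size. Mt2 (NCBI Gene 17750) measured 145.02, 151, 145 and 148 FPKM in vehicle libraries 1 to 4, and 50.9, 46.7, 56.0 and 61.2 FPKM in DAPA libraries 1 to 4. The groups lay far apart, from 145.02 FPKM in the lowest vehicle library to 61.2 FPKM in the highest DAPA library. The means were 147 ± 2.88 and 53.7 ± 6.28 FPKM (SD, n = 4 each), a ratio of DAPA to vehicle of 0.365 and a log2 change of -1.45 (SE 0.064). That change was the 12th largest fall of the 11496 genes tested on the log2(FPKM + 1) scale, and the 24th with limma voom on recovered reads.

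Mt1 (17748) measured 265, 299, 276 and 277 FPKM in vehicle libraries 1 to 4, and 172, 174, 175 and 176 FPKM in the DAPA libraries. The 4 DAPA libraries were nearly equal, and each lay below all vehicle libraries, among which replicate 2 was the highest. The means were 279 ± 14.3 and 174 ± 1.98 FPKM, a ratio of 0.624 and a log2 change of -0.68 (SE 0.035). Both genes rest on many reads, 30421 and 18973 for Mt1 and 8544 and 3109 for Mt2 over the 4 vehicle and the 4 DAPA libraries. The 95% counting interval of the ratio was 0.613 to 0.635 for Mt1 and 0.349 to 0.379 for Mt2. In a piece of tissue, fewer cells that carry a transcript and less of it in each cell cannot be told apart.

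**Figure D2:**
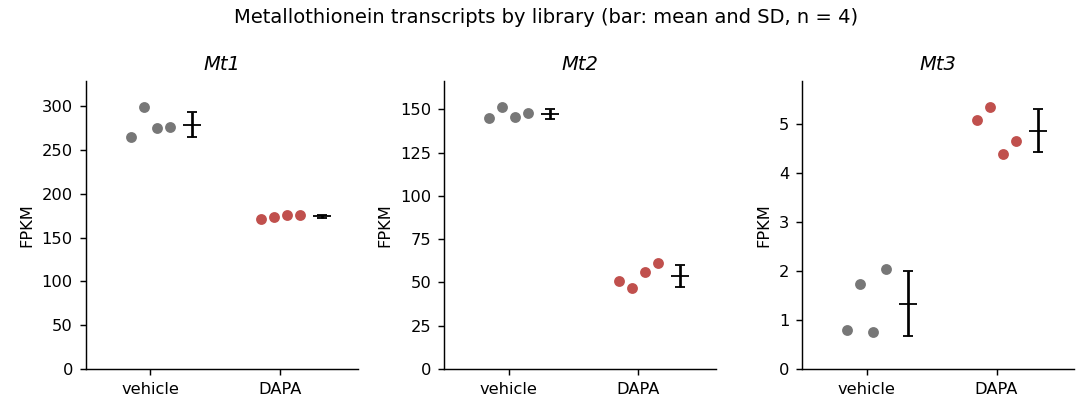
FPKM of Mt1, Mt2 and Mt3 in each library (points, in replicate order from left to right) with the group mean and SD (n = 4). Mt1 and Mt2 are lower in every DAPA library than in any vehicle library, and Mt3, on a scale of a few FPKM, is higher.

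Because the fall of Mt2 was the larger, the balance between both genes shifted. The level of Mt1 over that of Mt2, as a ratio of FPKM, was 1.83, 1.98, 1.90 and 1.87 in vehicle libraries 1 to 4. It was 3.37, 3.73, 3.13 and 2.88 in the DAPA libraries, above every vehicle library. The group means were 1.89 ± 0.0627 and 3.27 ± 0.362. In reads, not divided by length, they were 3.56 ± 0.118 and 6.15 ± 0.68. The size of this ratio depends on the transcript length assumed, though its shift between groups does not. The lengths behind the FPKM were 1045 bases for Mt1 and 556 for Mt2, while the Mt1 transcripts of GENCODE M21 span 549 to 1085 bases. With the shorter Mt1 transcript the Mt1 level would be higher relative to every other gene. Together, Mt1 and Mt2 took 358 to 397 RPM (reads scaled to library size) in the vehicle libraries and 208 to 218 RPM in the DAPA libraries.

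Mt3 (17751), the next metallothionein on the chromosome and best known from neurons, moved the other way. It is not among the listed genes, and its difference was tested. It measured 0.785, 1.73, 0.744 and 2.04 FPKM in vehicle libraries 1 to 4, and 5.09, 5.34, 4.39 and 4.64 FPKM in the DAPA libraries. Each DAPA library was above every vehicle library, and within vehicle replicates 1 and 3 were the low ones. Mt3 rose from 1.33 ± 0.661 to 4.86 ± 0.429 FPKM, 3.67-fold (log2 change 1.38, SE 0.16, limma adjusted p = 4.3e-05, higher in 4 of 4 libraries). The values rest on 75 and 273 reads in all, so the read ratio was 3.64 (95% counting limits 2.81 and 4.77). Over 16 alternatives its adjusted p stayed between 4.0e-06 and 0.0019. Mt4, a metallothionein known from stratified epithelium, had no read in any library.

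The genes on either side of the cluster give the local background. In RefSeq order the protein-coding genes run Bbs2, Mt4, Mt3, Mt2, Mt1 and Nup93. Bbs2, which encodes a subunit of the ciliary BBSome, measured 4.60 ± 0.475 and 5.21 ± 0.781 FPKM (limma adjusted p = 0.3). Nup93, a nuclear pore protein, measured 5.53 ± 0.386 and 5.55 ± 0.341 FPKM (limma adjusted p = 0.97). Neither passed the threshold.

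Mtf1 (17764), the activator of the metallothionein genes, was a weakly expressed transcript. It measured 1.79, 1.74, 2.01 and 1.76 FPKM in vehicle libraries 1 to 4, and 1.96, 2.11, 2.45 and 1.92 FPKM in the DAPA libraries. The groups overlapped, since vehicle replicate 3 lay above 2 of the DAPA libraries. The means were 1.83 ± 0.127 and 2.11 ± 0.243 FPKM, a log2 change of 0.14 (SE 0.071), opposite in sign to those of Mt1 and Mt2.

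Slc30a1 (22782) encodes ZnT1, the zinc exporter of the plasma membrane and, like the metallothioneins, an MTF1 target. Its values were 6.62, 6.79, 6.59 and 7.43 FPKM in vehicle libraries and 6.74, 5.73, 6.34 and 6.71 FPKM in DAPA libraries. The groups overlapped, with means of 6.86 ± 0.393 and 6.38 ± 0.473 FPKM and a log2 change of -0.09 (SE 0.060). Slc30a10 (226781), known mainly as a manganese exporter, was almost undetected. It had 15 reads over the vehicle libraries and 14 over the DAPA libraries, with between 0 and 9 in a library. The ratio of 0.934 had a 95% counting interval of 0.417 to 2.07, so a difference of up to about that size was not detectable at this depth. It was the only listed gene too low to enter the test across all genes.

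Among the importers, Slc39a8 (67547), which encodes ZIP8, a carrier of zinc and manganese, was higher in the DAPA libraries. It measured 0.416, 0.474, 0.484 and 0.369 FPKM in vehicle libraries 1 to 4, and 1.25, 0.962, 1.40 and 0.986 FPKM in the DAPA libraries. The groups did not overlap, with 0.484 FPKM the highest vehicle value and 0.962 FPKM the lowest DAPA value. The mean was 0.436 ± 0.0537 and 1.15 ± 0.21 FPKM, a ratio of 2.64. On the log2(FPKM + 1) scale, which understates low genes, the change was 0.58 (SE 0.082), and it was 1.21 with a pseudocount of 0.1. The reads behind it, 364 and 958, gave a read ratio of 2.63 (95% counting limits 2.33 and 2.98). Slc39a8 passed the filter on low values, a mean of 1 FPKM in a group, through the DAPA libraries alone.

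Slc39a14 (213053) encodes ZIP14, which carries zinc, iron and manganese and is known from mouse liver as a target of interleukin-6. It measured 6.72, 6.64, 7.43 and 6.88 FPKM in vehicle libraries and 6.13, 6.08, 6.26 and 6.22 FPKM in DAPA libraries. The groups did not overlap, but they lay close, at 6.92 ± 0.353 and 6.17 ± 0.0818 FPKM (log2 change -0.14, SE 0.049). Slc39a10 (227059) encodes ZIP10, an importer of the plasma membrane whose transcription MTF1 is reported to hold down. Its values of 1.72, 1.80, 1.88 and 1.92 FPKM in vehicle libraries and 2.21, 2.04, 1.87 and 2.37 FPKM in DAPA libraries overlapped, with a log2 change of 0.14 (SE 0.068).

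**Figure D3:**
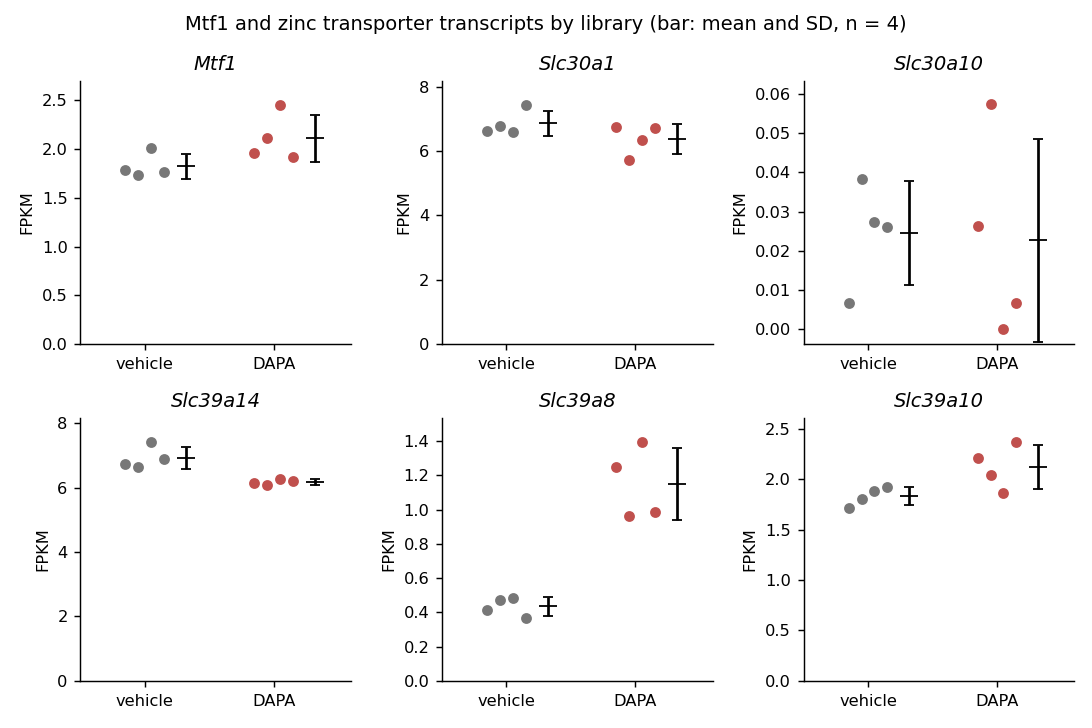
FPKM of Mtf1 and the 5 listed zinc transporter genes in each library (points, in replicate order) with the group mean and SD (n = 4), each panel on its own scale. Slc39a8 separates by more than the spread within groups, Slc39a14 separates narrowly, and the groups overlap in Mtf1, Slc30a1, Slc30a10 and Slc39a10.

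By level per length, the order in the vehicle libraries was Mt1, Mt2, Slc39a14, Slc30a1, Slc39a10, Mtf1, Slc39a8 and Slc30a10. Slc39a14 and Slc30a1 did not differ beyond their spread, nor did Slc39a10 and Mtf1, at 1.83 FPKM each. In the DAPA libraries Slc30a1 stood above Slc39a14, again within the spread. By mean FPKM, Mt1 ranked 295th and Mt2 490th of 17356 detected genes in vehicle, and 426th and 1269th in DAPA. Of the 7 listed genes in the fit, Mt1 and Mt2 (lower) and Slc39a8 (higher) were past an adjusted p of 0.05, as were 18.4% of all 11496 tested genes, 8.75% lower and 9.62% higher. With limma voom on the reads recovered from the FPKM, Slc39a14 (lower) and Slc39a10 (higher) were past it too, as were 22.4% of all genes, 10.3% lower and 12.1% higher. The libraries of the groups did not overlap for Mt1, Mt2, Slc39a8 and Slc39a14, and for 22.1% of all tested genes. Slc39a14 was also past the threshold with quantile normalization and with limma without trend, and with a filter at a mean of 5 FPKM Slc39a8 was not in the fit. Since the genes were chosen with this contrast known, nothing is read from these counts.

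No other gene of either transporter family passed the test. Of 19 SLC30 and SLC39 genes outside the list, 12 were expressed highly enough to test, and none passed in either direction (limma-trend, and none with limma voom, against 18.4% and 22.4% of all genes). The unadjusted p was below 0.05 for 1 of them, against 31.3% of all tested genes. Their median log2 change was 0.06, with a range from -0.13 to 0.19, while the median over all tested genes was 0.01. The most abundant were Slc30a9, at 44.9 ± 1.93 and 43.7 ± 0.815 FPKM, Slc39a7, the importer of the endoplasmic reticulum and Golgi, at 44.6 ± 1.40 and 45.0 ± 1.71 FPKM, and Slc39a1, at 42.5 ± 1.12 and 42.5 ± 1.25 FPKM, singled out after their values were seen. Slc30a6, a subunit of a zinc carrier of the Golgi, came nearest to the threshold. Its mean was 3.93 ± 0.521 and 4.60 ± 0.131 FPKM (limma adjusted p = 0.095), it passed only without vehicle replicate 1 (adjusted p = 0.043), and over all alternatives the adjusted p ran from 0.043 to 0.24. The summed level of the 19 genes was 186 to 191 FPKM in vehicle and 189 to 197 FPKM in DAPA libraries. Slc30a8, the carrier of insulin granules, had no read.

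**Figure D4:**
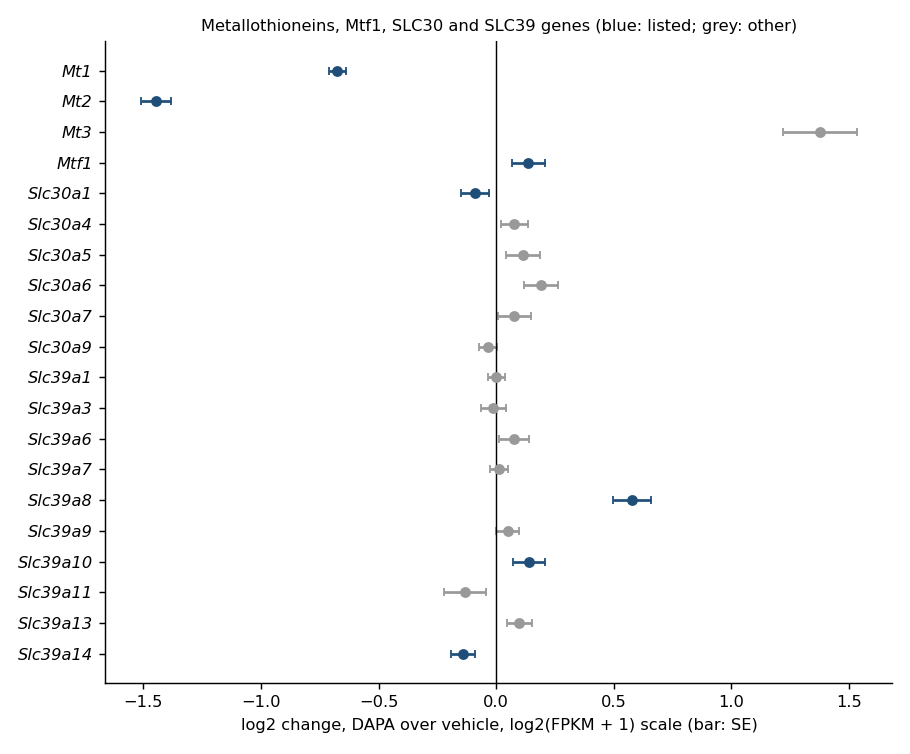
Log2 change between DAPA and vehicle libraries (x axis, log2(FPKM + 1) scale, bars are SE) for each tested metallothionein, Mtf1, SLC30 and SLC39 gene, with listed genes in blue. Mt1 and Mt2 lie at -0.68 and -1.45, Mt3 at 1.38 and Slc39a8 at 0.58, and the 12 transporters outside the list between -0.13 and 0.19.

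Genes that share an inducer, a metal or a function with the metallothioneins were compared by lists. Other genes reported as MTF1 targets were too few to tell of a common direction. Of 5 tested, 1 rose and 1 fell, with a median log2 change of -0.07, where 9.62% of all tested genes rose and 8.75% fell. The log2 changes were -0.21 for Gclc, -0.16 for Pgf, -0.07 for Selenoh, -0.03 for Ndrg1 and 0.15 for Csrp1. Csrp1, a LIM protein of muscle, rose from 42.0 ± 0.897 to 46.6 ± 1.52 FPKM (limma adjusted p = 0.0091). Gclc, the catalytic subunit that makes the precursor of glutathione, fell from 5.37 ± 0.246 to 4.49 ± 0.314 FPKM (limma adjusted p = 0.022), a call that was lost when any of 6 libraries was left out (vehicle replicates 2, 3 and 4 and DAPA replicates 1, 2 and 4, adjusted p 0.051 to 0.064). Selenoh, at 27.7 ± 3.13 and 26.2 ± 3.21 FPKM, and Pgf, a growth factor of vessels, at 6.26 ± 0.71 and 5.50 ± 0.592 FPKM, did not pass.

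Genes known to be induced by glucocorticoids were lower in the DAPA libraries nearly throughout. Of 20 tested, 17 fell and 2 rose, with a median log2 change of -0.80, where 8.75% of all genes fell and 9.62% rose. Tsc22d3, which encodes the glucocorticoid-induced leucine zipper, measured between 106 and 109 FPKM in the vehicle libraries and between 47.5 and 51.0 FPKM in the DAPA libraries (log2 change -1.11, SE 0.03, limma adjusted p = 5.0e-11). Ddit4, an inhibitor of mTORC1, fell from 112 ± 3.72 to 51.4 ± 1.03 FPKM (limma adjusted p = 8.3e-11). Fkbp5, a co-chaperone that dampens the glucocorticoid receptor, fell from 26.6 ± 0.679 to 12.4 ± 0.602 FPKM (limma adjusted p = 3.2e-09). Per1, which is also a clock repressor, fell from 12.3 ± 0.562 to 3.62 ± 0.253 FPKM (limma adjusted p = 9.7e-10). The genes that rose were Dusp1 (log2 change 0.18) and Lcn2 (0.42), and Mertk did not pass (-0.13), all named after their values were seen. Mt2, at -1.45, lay within the range of this list, which ran from -1.53 to 0.42, and Mt1 at -0.68 lay near its middle. Both also lay within the range of the interleukin-6 and acute phase list described next, from -1.46 to 0.42. Whether either inducer had a part in the change of Mt1 and Mt2 was not tested.

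Genes of the interleukin-6 and acute phase response went both ways. Of 16 tested, 7 fell and 5 rose, with a median log2 change of -0.08, where 8.75% of all tested genes fell and 9.62% rose. Those with the smallest p all fell. They were Cebpb, from 85.2 ± 1.96 to 45.1 ± 0.719 FPKM, Cebpd, from 67.0 ± 0.591 to 34.4 ± 2.02 FPKM, haptoglobin (Hp), from 27.7 ± 4.45 to 9.49 ± 1.97 FPKM, and Timp1, an inhibitor of metalloproteinases, from 50.2 ± 4.60 to 35.4 ± 3.54 FPKM (limma adjusted p = 4.0e-10, 4.4e-09, 3.5e-06 and 2.8e-04). Cebpb and Cebpd encode transcription factors, and Cebpd and Lcn2 stand in the glucocorticoid list too. Socs3, the direct feedback target of STAT3, was among those that rose (4.46 to 5.55 FPKM, limma adjusted p = 0.009), named after its values were seen.

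Targets of NRF2, the factor of the oxidant response, fell in 3 of 12 tested genes and rose in none, where 8.75% of all tested genes fell and 9.62% rose. Nqo1, a quinone reductase, fell from 26.9 ± 1.62 to 22.0 ± 0.796 FPKM (limma adjusted p = 0.001), and Hmox1, which breaks down haem, from 13.7 ± 1.35 to 11.0 ± 0.913 FPKM (limma adjusted p = 0.013). The third was Gclc, described above, and the median of the list was 0.00. Gstm1, a glutathione transferase, measured 171 ± 5.32 and 177 ± 5.31 FPKM and did not pass.

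Copper, the other metal that metallothioneins hold, has its own carriers and chaperones. Of 13 tested, 2 rose and none fell, a called share of 15.4% that is near the 18.4% of all tested genes, with a median log2 change of -0.04. The called genes were Steap4, a metalloreductase, from 16.1 ± 0.358 to 19.4 ± 1.42 FPKM, and Cp, the copper ferroxidase ceruloplasmin, from 23.1 ± 0.88 to 26.0 ± 0.999 FPKM (limma adjusted p = 0.0037 and 0.014). Steap3 fell without DAPA replicate 4 (adjusted p = 0.013) and with limma voom (0.02), but not with all libraries in limma-trend (17.4 ± 0.381 and 15.5 ± 1.42 FPKM, adjusted p = 0.064). Sod1, the copper and zinc superoxide dismutase, measured 481 ± 11.5 and 460 ± 8.86 FPKM (limma adjusted p = 0.11).

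Of 10 genes for the handling of manganese and iron, the other metals of ZIP8 and ZIP14, 2 rose and 2 fell, where 9.62% of all tested genes rose and 8.75% fell. Hamp, hepcidin, rose from 0.309 ± 0.21 to 12.6 ± 1.55 FPKM (limma adjusted p = 5.5e-10). It had 13 reads over the vehicle libraries and 535 over the DAPA libraries, and passed the filter on low values through the DAPA libraries alone. Atp2c1, a calcium and manganese pump of the Golgi, rose from 11.0 ± 0.509 to 13.2 ± 0.832 FPKM (limma adjusted p = 0.006). Tfrc, the transferrin receptor, fell from 32.3 ± 0.916 to 24.4 ± 1.05 FPKM (limma adjusted p = 1.5e-05). Ftl1, the light chain of ferritin, fell from 1119 ± 88 to 983 ± 26.7 FPKM (limma adjusted p = 0.015), a call that ended with no filter on low values (0.061) and with limma without trend (0.052).

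**Figure D5:**
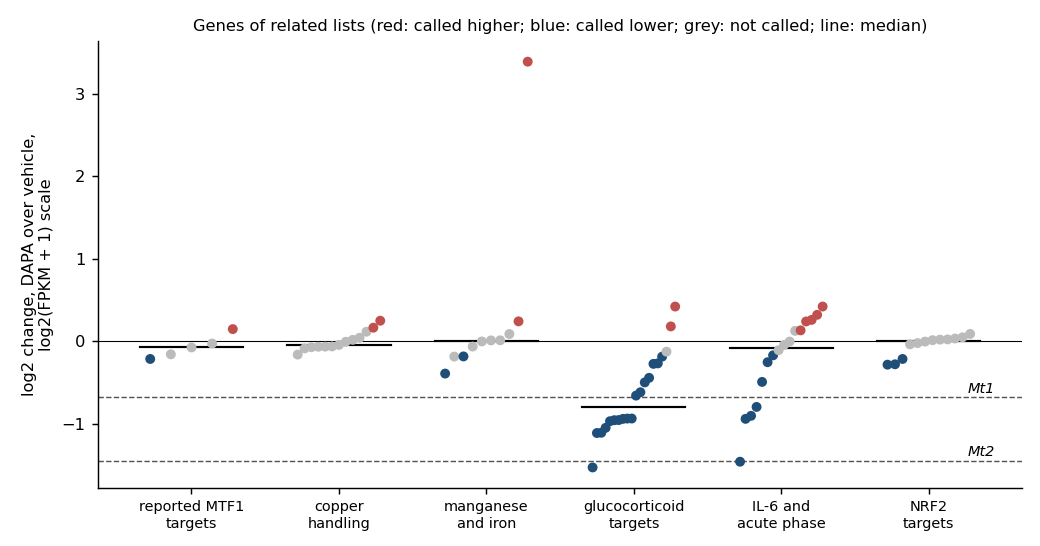
Log2 change between DAPA and vehicle libraries (y axis, log2(FPKM + 1) scale) of each tested gene, 1 point per gene, in 6 lists related to metallothioneins, with the changes of Mt1 and Mt2 as dashed lines. The glucocorticoid targets have a median of -0.80 with 17 of 20 called lower, and the other lists have medians between -0.08 and 0.00.

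Markers of cell types and chambers differed between the same libraries, where 9.62% of all tested genes rose and 8.75% fell. Of 13 atrial markers 12 rose. Sln, Myl4, Bmp10, Mybphl, Fgf12 and Sbk2 passed the filter on low values through the DAPA libraries alone, so a call for them could only be higher. The same kind of limit holds for any gene of the other lists that passed the filter in 1 group alone. The summed level of the 13 atrial markers was 8128 to 9069.9 FPKM in vehicle and 12980.5 to 13691 FPKM in DAPA libraries. That sum is nearly all Nppa, the atrial natriuretic peptide (8481 ± 447 and 12070 ± 305 FPKM), and so does not show the far larger ratios of Myl7 (450.2), Myl4 (108) and Sbk2 (7.76). Of 12 tested adipocyte markers 11 fell, against 8.75% of all tested genes, with a summed level of 1848 to 2085 FPKM against 1347 to 1411 FPKM. That sum is mostly Fabp4 (ratio 0.81), while the fat cell genes Cfd, Cidec, Adipoq, Plin1 and Car3 had ratios of DAPA to vehicle of 0.177, 0.164, 0.273, 0.294 and 0.303. Of 9 epicardial markers 6 rose (21.6 to 37.6 against 43.6 to 58.7 FPKM). None of 13 atrial, 13 adipocyte or 10 epicardial markers was at 0 in all libraries. Of 14 genes listed as ventricular markers 1 rose (Irx4) and 3 fell (Myl2, Actc1 and Tnnc1). Many genes of that list, Actc1 and Tnnc1 among them, belong to heart muscle in general, so it does not measure the share of ventricle. The summed level of the 14 genes was 39050.1 to 39693.5 FPKM in vehicle and 35820.6 to 38343.9 FPKM in DAPA libraries. Fibroblast (2 of 10 higher, 4 lower) and macrophage markers (4 and 2 of 10) went both ways. Endothelial markers were mostly higher (7 and 2 of 10, median log2 change 0.21). With limma voom, 8 epicardial markers rose, and 2 genes of the ventricular list rose and 4 fell. In that fit 3 fibroblast markers rose and 4 fell, and 6 macrophage markers rose and 2 fell. Of hepatocyte markers, 2 of 3 tested rose, at summed levels of 9.43 to 11.8 against 18.2 to 22.3 FPKM, and of 5 erythroid markers none passed in limma-trend, while 2 had an unadjusted p below 0.05 and voom called 2 higher and 1 lower. The part of these cell types in the differences of Mt1, Mt2, Mt3, Slc39a8 and the glucocorticoid targets was not tested.

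After subtraction of the group means, the log2 levels of Mt1 and Mt2 had a correlation of 0.29 over the 8 libraries. This pooled value does not tell how closely both genes tracked each other, since they varied in different groups. Mt1 varied mostly among vehicle libraries (SD 14.3 FPKM, against 1.98 in DAPA), and Mt2 mostly among DAPA libraries (SD 6.28 FPKM, against 2.88 in vehicle). In vehicle, replicate 2 was the highest for both genes. The genes of highest correlation with Mt1 in the same sense were Elmo2, Rpl19, Eif3f, Il16 and Ndufb10, with r of 0.97 to 0.98, and with Mt2 they were Cand2, Sap30bp, Atxn1l, Slain2 and Acbd6, with r of 0.94 to 0.96. Of all tested genes, 89 reached an r above 0.9 with Mt1 and 25 with Mt2. They are the extremes of 11496 correlations over 8 libraries that share their preparation, no chance level was computed for them, and nothing is read from the names.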

How the data were processed

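Heart RNA was sequenced in 8 libraries, 4 vehicle and 4 DAPA. TRIzol RNA went into TruSeq Stranded mRNA libraries, and Trimmomatic trimmed the paired reads, per the labels' protocols. The submitters' processing notes name DESeq, HTSeq, Cufflinks, StringTie, SAMtools and HISAT2, without versions or roles, and as build GRCh38, a human assembly, while symbols and NCBI Gene identifiers are those of mouse. The build behind the values is thus unclear, so coordinates are those of RefSeq promoters alone. Use of strand in counting is not stated, and reads of near-identical or overlapping genes may be split.

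The authors deposited FPKM per library, not pooled, and, in the authors' table, a fold change (ratio, DAPA to vehicle) with a q-value. The authors' deposited table gives ratios of 0.361 for Mt2 and 0.619 for Mt1; its q-values were not used. FPKM values of a gene are whole multiples of what 1 read is worth, so reads came back whole for 17356 of 17356 detected genes (100.0% of values above 0, tolerance 0.0005 reads). The library totals implied by the deposited FPKM were 24990393 to 26823456 (reads or pairs). Counting limits at 95% are Clopper-Pearson limits of the binomial share and hold for counting error alone.

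Differences were fitted with limma-trend in limma 3.58.1 under R 4.3.3, with group alone in the model, on log2(FPKM + 1) of the 8 libraries, over genes with a mean of at least 1 FPKM in a group, with a Benjamini-Hochberg adjusted p below 0.05 over 11496 genes. All adjusted p-values are from this fit unless another is named. The fit was tested on simulated data that held no difference in tissue make-up, so that check does not bear on such a difference. Values are mean ± SD over 4 libraries. The genes and lists were chosen with earlier results of these data known, the glucocorticoid list included, so their counts are descriptions and no test of a set was made. Named were the 8 listed genes, each tested family member past the threshold, the 4 genes of smallest p in each related list, and the 5 genes nearest in pattern to Mt1 and to Mt2. Alternatives were other pseudocounts (0.1, 0.01), filters (none, mean of 5 FPKM), scalings, a replicate block, limma without trend, limma voom on recovered reads, and each library left out. Promoters were taken for 7 of 8 listed genes. Protein sequences were not used here.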

Additional observations from a re-analysis of the deposited data

Results flagged for a closer look

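Among 80 groups of 4 libraries (the genes named by the rule, each in vehicle and in DAPA), 3 had a library far from the other 3 by a gap test (Dixon, 95% level), which chance gives in about 1 group in 20. Selenoh measured 31.0 FPKM in DAPA replicate 2, against 24.2 to 24.9 in the other DAPA libraries. Gclc measured 4.96 FPKM in DAPA replicate 3, against 4.27 to 4.37 in the others. Cebpb measured 88.1 FPKM in vehicle replicate 2, against 83.8 to 84.5 in the others. No library of Mt1, Mt2, Mt3, Mtf1 or the listed transporters stood apart in this way.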

How the results depend on the processing

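Over 17 alternatives the log2 change of Mt2 ran from -1.51 to -1.38 and that of Mt1 from -0.70 to -0.64, and Mtf1, Slc30a1, Slc39a14 and Slc39a10 kept their sign wherever they entered the fit. The change of Slc39a8 was 0.58 with a pseudocount of 1, and 1.21 and 1.37 with 0.1 and 0.01, and 1.38 with limma voom on recovered reads, since a pseudocount of 1 is large beside its level. Slc30a10 entered only with no filter on low values. The factor by which the Mt1 to Mt2 ratio differed between groups was 1.73, and 1.65 to 1.80 over its alternatives. Over all genes, 1106 were higher and 1006 lower, and 857 to 985 and 810 to 921 with a library left out. Library numbers are shared between groups but do not pair libraries (correlations of deviations between -0.06 and 0.01 for the same number). With the replicate block, 906 genes were higher and 858 lower. Glucocorticoid targets called lower numbered 16 to 17 of 20, Pik3r1 being the gene that was lost. Interleukin-6 and acute phase genes called higher numbered 4 to 5 and lower 5 to 7, and NRF2 targets called lower 2 to 3. Zinc transporters outside the list called higher numbered 0 to 1 with a library left out (Slc30a6). MTF1 targets called lower numbered 0 to 1 (Gclc), and copper genes called lower 0 to 1 with a library left out and 1 with limma voom (Steap3). Manganese and iron genes called lower numbered 1 with limma without trend and 1 with no filter on low values, both losing Ftl1 (adjusted p = 0.052 and 0.061). For calls that changed under a left-out library or another setting, the cause was not tested. Slc30a10, with 29 reads in all, is limited by depth.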
